A study of Mus musculus with 75 samples.

Results

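The interferon-stimulated genes Irf7, Zbp1, Oas1a, Oasl2, Ifit1, Ifit3, Rsad2, Isg15 and Usp18 were followed by gene symbol across every age and group of a mouse liver RNA sequencing series. They are 9 of the 55536 genes in the count table, and all 9 had enough counts to be tested in every comparison. The livers came from male wild-type C57Bl/6 offspring of dams that drank either vehicle or tributyltin (TBT), an organotin compound that activates the nuclear receptors PPAR gamma and RXR, at 0.5 mg/kg/day (3.07 µM in the drinking water) until the pups were weaned. At 3 weeks there were 7 vehicle and 8 TBT mice. At 5 months there were 8 vehicle mice, 16 TBT mice labelled low risk and 10 TBT mice labelled high risk. At 10 months there were 6 vehicle mice, 5 low-risk TBT mice, 5 samples of uninvolved liver from TBT mice labelled high risk and 7 tumors from TBT mice, so the TBT groups of a given age share the exposure and differ in the risk label. The labels do not state how risk was assigned at 5 months. Of the tumors, 6 carry the number of a mouse whose uninvolved liver was also sequenced, and every uninvolved library carries the number of such a mouse.

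Interferons are secreted proteins that cells release when they sense viral or misplaced nucleic acid. Type I interferons bind a receptor that is present on nearly all cells, the receptor's kinases signal to transcription factors, and these bind the interferon-stimulated response element in the promoters of target genes. In liver, hepatocytes, macrophages and endothelial cells all carry this program, and it is known from viral hepatitis and from steatohepatitis. Irf7 is a transcription factor that is itself a target and drives further interferon transcription. Zbp1 senses nucleic acid in the Z conformation and starts cell death and inflammatory signaling. Oas1a makes the second messenger that activates RNase L, and Oasl2 is a relative of the OAS enzymes. Ifit1 and Ifit3 act against foreign RNA, and Ifit1 binds RNA whose cap lacks the host methylation. Rsad2 (viperin) is a radical SAM enzyme that makes a chain-terminating nucleotide. Isg15 is a ubiquitin-like protein that is joined to other proteins, and Usp18 removes it and also restrains the type I receptor.

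The 9 genes lie on 7 chromosomes of the GRCm38 build (mm10, GENCODE M21). Irf7 (ENSMUSG00000025498) is at chr7:141262706-141266481 on the minus strand and Zbp1 (ENSMUSG00000027514) at chr2:173206612-173218923 on the minus strand. Oas1a (ENSMUSG00000052776) is at chr5:120896256-120907521 on the minus strand and Oasl2 (ENSMUSG00000029561) at chr5:114896936-114912234 on the plus strand. Ifit1 (ENSMUSG00000034459) and Ifit3 (ENSMUSG00000074896) lie close together on the plus strand, at chr19:34640871-34650009 and chr19:34583531-34588731. Rsad2 (ENSMUSG00000020641) is at chr12:26442746-26456452 on the minus strand, Isg15 (ENSMUSG00000035692) at chr4:156199424-156200818 on the minus strand and Usp18 (ENSMUSG00000030107) at chr6:121245906-121270917 on the plus strand. Close copies limit some of the counts: the transcripts of Ifit3 and Ifit3b were 98.0% identical over 1697 aligned bases and those of Oas1a and Oas1g 97.5% identical over 1860, so reads could have been assigned to either gene of such a pair. Irf7 overlaps Phrf1, and Usp18 overlaps the long intergenic RNA gene Gm44148, in both cases on the opposite strand, and the strand setting of the counting is not given in the sources used here.

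Several of the promoters hold the letters of the interferon-stimulated response element. The 250 bases before each start site in the RefSeq promoter table (GRCm38.p6) were searched on both strands for GAAANNGAAA, the core of that element, with overlapping matches merged. Of the 9 genes 7 had an entry and 5 of these held a match, whereas 978 of the 32851 promoters in the table (2.98%) did. The stretches around the matches are shown here because the motif is the one through which the pathway is known to act, and a match here describes the letters only. They are written 5′ to 3′ on the strand of the gene, and capitals mark the matches, which read TTTC where the match is on the other strand.
Isg15 (chr4:156200845-156200926, minus strand): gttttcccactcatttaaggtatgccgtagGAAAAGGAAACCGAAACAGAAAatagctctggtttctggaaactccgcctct
Ifit1 (chr19:34640755-34640843, plus strand): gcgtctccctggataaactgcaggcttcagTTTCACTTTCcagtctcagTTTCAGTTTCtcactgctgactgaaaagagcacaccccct
Ifit3 (chr19:34583343-34583446, plus strand): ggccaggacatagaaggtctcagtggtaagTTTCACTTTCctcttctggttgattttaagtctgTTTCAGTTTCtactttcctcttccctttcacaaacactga
Oas1a (chr5:120907526-120907575, minus strand): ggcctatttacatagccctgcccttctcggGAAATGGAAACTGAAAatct
Rsad2 (chr12:26456533-26456602, minus strand): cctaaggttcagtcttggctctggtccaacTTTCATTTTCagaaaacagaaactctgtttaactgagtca
Isg15 had 3 overlapping matches in 1 run, 78 to 57 bases before its start. The matches lay 104 to 76 bases before the start in Ifit1, 156 to 113 in Ifit3, 20 to 5 in Oas1a and 120 to 111 in Rsad2. These letters were not in the windows of Irf7 and Oasl2, and Usp18 and Zbp1 had no entry.

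Levels below are CPM, a gene's counts over all counts of its sample on the usual per-million scale, as mean ± SD over the samples of a group. Differences are fitted log2 fold changes with their standard error (SE) or 95% interval. They come from edgeR's quasi-likelihood test with TMM scaling, p-values are Benjamini-Hochberg adjusted over all genes tested, and a gene is called higher or lower at an adjusted p under 0.05. In high-risk liver and tumor the fitted folds run below the ratio of the CPM means: scaling by total counts in place of TMM moved the median of all genes by 0.314 on the log2 scale in high-risk against low-risk liver at 5 months, by 0.368 against vehicle, by 0.246 and 0.319 in uninvolved liver against low-risk and vehicle at 10 months, by 0.296 in tumor against vehicle and by −0.176 between the vehicle groups of 5 months and 3 weeks. It also moved the share of called genes that were higher, from 52.3% to 86.1% in high-risk against low-risk liver, from 53.4% to 93.5% in high-risk liver against vehicle, from 52.8% to 78.8% in uninvolved against low-risk liver, from 54% to 82.6% in uninvolved liver against vehicle, from 54.2% to 89.5% in tumor against vehicle, from 47.4% to 20.8% between vehicle mice of 5 months and 3 weeks and from 49.8% to 68.9% between those of 10 and 5 months. None of the called differences of the 9 genes turned its direction with it. The labels do not say that samples of a group came from separate litters, so p-values measure the spread between these samples.

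Depth ran from 6758374 to 19429833 counts per library at 3 weeks, from 2831666 to 45448610 at 5 months and, in the groups compared at 10 months, from 22502522 to 44585060. The shallowest was vehicle mouse 9 at 5 months, in which the 9 genes had between 6 and 30 counts each. At 5 months 18 samples, 1 vehicle, 10 low-risk and 7 high-risk, came from the second sequencing batch named in the labels, and all other samples from the first, so batch was a term in every comparison that used high-risk or low-risk mice of that age. The authors had already adjusted the deposited counts between batches with ComBat-seq, per the name of the count table, so the batch term and the fits within a batch read adjusted counts, and the group setting of that adjustment is not given in the sources used here. Libraries 3 and 6 of uninvolved liver were nearly the same library by their counts and were added together as 1 sample, as were the pair of libraries from vehicle mouse 3 at 3 weeks. TBT mouse 4 at 3 weeks, labelled male, had 348 CPM of Xist and 7.08 CPM over 4 Y-linked genes, which goes against its label. Low-risk mouse 24 at 5 months had 84.6 CPM of Xist beside 237 CPM over those genes, and no other low-risk mouse of that age was above 1.59 CPM of Xist. Some libraries stood apart: high-risk mouse 10 (39669 genes detected) and vehicle mouse 9 (38206) at 5 months, high-risk mouse 15 (14.5% mitochondrial counts) and low-risk mouse 16 (11.2%) at 5 months, and 1 library of vehicle mouse 3 at 3 weeks (13.5%). Without them the number of the 9 genes called went from 4 to 5 in high-risk liver against vehicle and from 8 to 9 between vehicle mice of 10 and 5 months, and it was the same in the other comparisons. A library of a 10-month vehicle mouse labelled as a tumor was in no comparison. The 6 hepatocyte markers summed to 57810 to 186600 CPM over the samples compared. Against vehicle, 4 of the 6 were called lower and 0 higher in high-risk liver, in uninvolved liver and in tumor. In the same order 7.38%, 26.5% and 21% of all genes were lower. In both comparisons of high-risk with low-risk liver 3 of the 6 were lower and 0 higher, where 18.5% (5 months) and 24.7% (10 months) of all genes were lower.

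**Figure D1:**
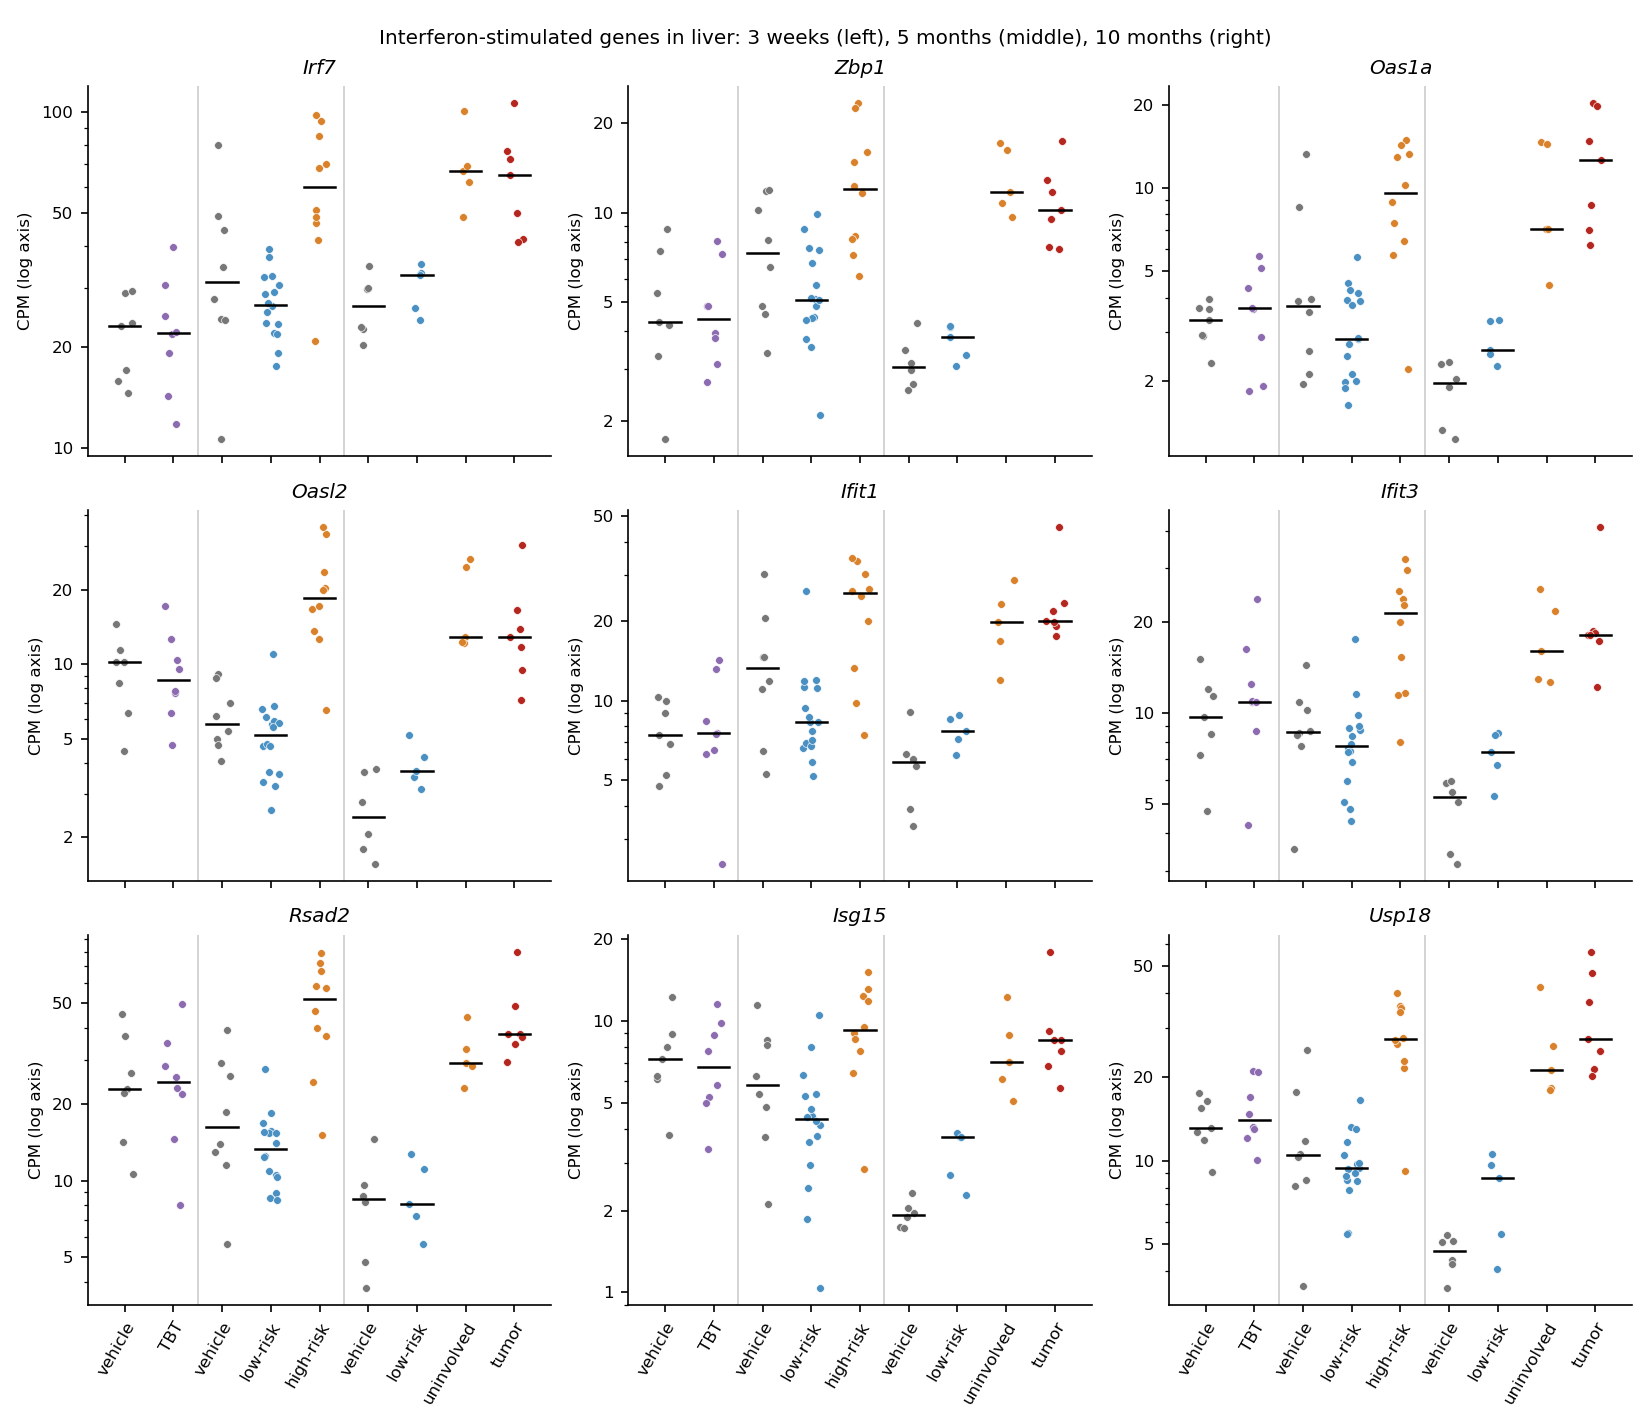
Level of each of the 9 genes (CPM, log axis) in every sample, by age and group, with a bar at the group median. High-risk liver at 5 months and uninvolved liver and tumor at 10 months lie highest for most genes, and the vehicle mice of 10 months lie lowest for most genes.

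The groups formed the same broad order for most of the 9 genes. Averaged over the 9 genes as mean log2 CPM, the group medians were 2.33 in 10-month vehicle, 2.81 in 10-month low-risk, 3.02 in 5-month low-risk, 3.04 in 3-week vehicle, 3.30 in 3-week TBT, 3.50 in 5-month vehicle, 3.93 in uninvolved liver, 4.13 in tumor and 4.32 in 5-month high-risk liver. Groups next to each other in that order overlapped in range at every step. Per kilobase of exon, Irf7 was the most abundant of the 9 in every group of 5 and 10 months (16.6 CPM per kb in 5-month high-risk and 7.08 in 10-month vehicle liver), and Isg15 was the most abundant at 3 weeks (9.96 CPM per kb in vehicle). Oasl2 had the lowest level per kilobase at 5 and 10 months (0.409 CPM per kb in 10-month vehicle liver), and Zbp1 the lowest at 3 weeks.

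At weaning, right after the exposure, none of the 9 genes differed between TBT and vehicle mice. The fold changes ran from −0.06 to 0.33 (median 0.09), every adjusted p by edgeR was 0.999, and none of the 9 had an unadjusted p under 0.05. The same test called 0% of the 14050 genes tested, with 3.37% at an unadjusted p under 0.05. Ifit3 had the largest difference, with 12.2 ± 5.74 CPM in the 8 TBT mice and 9.79 ± 3.38 in the 7 vehicle mice, a log2 fold change of 0.33 with a 95% interval of −0.26 to 0.92. Rsad2 was at 25.8 ± 12.7 CPM with TBT and 25.6 ± 12.2 with vehicle, and its interval of −0.71 to 0.80 was the widest of the 9. The animals spread together within each group: TBT mouse 5 was highest of its group in 8 of the 9 genes and TBT mouse 6 lowest in 6, while vehicle mouse 3 was highest in 7 and vehicle mouse 2 lowest in 8.

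At 5 months all 9 genes were higher in high-risk than in low-risk TBT mice, by 1.68-fold (Isg15) to 3.01-fold (Oasl2). The median log2 fold change of the 9 was 1.01, where the median over all genes was −0.01. The test called 20.3% of the 14773 genes higher and 18.5% lower, so this was a contrast in which many genes differed. For each of the 9, at least 1 high-risk mouse lay within the low-risk range.

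Irf7, the transcription factor of the set, was at 20.8, 59.9 and 98.5 CPM (lowest, median and highest) in the 10 high-risk mice and at 17.5, 26.7 and 39.1 in the 16 low-risk mice. Only high-risk mouse 1 lay within the low-risk range. The log2 fold change was 0.91 (SE 0.19, adjusted p = 0.00033 by edgeR). Zbp1, the Z-nucleic acid sensor, was at 6.11, 11.96 and 23.3 CPM in high-risk and 2.10, 5.11 and 9.89 in low-risk mice, with 4 high-risk mice inside the low-risk range. Its log2 fold change was also 0.91 (SE 0.21, adjusted p = 0.000916 by edgeR).

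The OAS genes showed larger differences. Oasl2 was at 6.52, 18.5 and 35.7 CPM in high-risk and 2.59, 5.16 and 10.96 in low-risk mice. Every high-risk mouse other than mouse 1 was above every low-risk mouse. The log2 fold change of 1.59 (SE 0.19, adjusted p = 1.34e-07 by edgeR) was the largest of the 9 here. Oas1a was at 2.20, 9.56 and 14.8 CPM in high-risk and 1.63, 2.83 and 5.59 in low-risk mice, again with mouse 1 alone inside the low-risk range, and its log2 fold change was 1.301 (SE 0.27, adjusted p = 0.000198 by edgeR). Its near-copy Oas1g was higher as well, but reads could have been assigned to either gene, so these are not separate results.

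Among the effectors that act on RNA, Ifit1 was at 7.43, 25.5 and 34.6 CPM in high-risk and 5.19, 8.28 and 25.9 in low-risk mice. Low-risk mouse 2 reached the level of the high-risk median, and high-risk mouse 4 was below the low-risk median. Ifit1 rose by 1.01 (SE 0.24, adjusted p = 0.00107 by edgeR) and Ifit3, at 7.99, 21.3 and 32.3 CPM against 4.38, 7.76 and 17.5, by 0.98 (SE 0.19, adjusted p = 0.000127). Rsad2 was at 15.2, 52.0 and 79.0 CPM in high-risk and 8.38, 13.3 and 27.5 in low-risk mice. Its log2 fold change of 1.54 (SE 0.22, adjusted p = 1.93e-06 by edgeR) was close to that of Oasl2.

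Isg15, the ubiquitin-like modifier, was at 2.85, 9.28 and 15.1 CPM in high-risk and 1.04, 4.35 and 10.5 in low-risk mice, and the ranges overlapped over most of their length. Its log2 fold change of 0.75 (SE 0.26, adjusted p = 0.0196 by edgeR) was the smallest of the 9, and it did not pass when genes of low counts were kept in the test (adjusted p = 0.0629). Without low-risk mouse 24, the highest of its group for Isg15 and Zbp1, 9 of the 9 passed. Usp18, its protease, was at 9.21, 27.5 and 40.01 CPM in high-risk and 5.45, 9.38 and 16.5 in low-risk mice, and only high-risk mouse 1 lay within the low-risk range. Usp18 rose by 1.22 (SE 0.19, adjusted p = 5.33e-06 by edgeR).

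Within the first sequencing batch, with 3 high-risk mice, all 9 differences stayed positive (0.58 to 1.80) and 2 of the 9 passed the test, Oasl2 at 1.80 (adjusted p = 0.0116 by edgeR) and Rsad2 at 1.68 (adjusted p = 0.0417). Over all genes 773 passed there, against 5745 with both batches. Within the second, all 9 were positive (0.67 to 1.45) and 8 passed, Isg15 being the exception at 0.67 (adjusted p = 0.0829). High-risk mouse 1 was the lowest of its group in 8 of the 9 genes, and its mean log2 level of 2.80 was below the low-risk median.

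Markers of other cells moved with the same split, not all in 1 direction. The 7 markers of monocyte-derived macrophages summed to 59.6, 403 and 528 CPM (lowest, median and highest) in high-risk mice and 29.3, 49.6 and 119 in low-risk mice, and 7 of the 7 were called higher. The plasmacytoid dendritic cell markers, of the cell type known for the strongest interferon release, summed to 35.5, 46.5 and 69.7 CPM in high-risk and 13.9, 24.2 and 50.4 in low-risk mice. Most of that sum was Tcf4, which other cells express too, with means of 41.6 CPM in high-risk and 23.9 in low-risk mice. Siglech, the more specific marker, averaged 2.72 and 0.607 CPM and was called higher by 1.86, Tcf4 was higher by 0.48 and Ccr9 did not pass (0.35), while Cox6a2 was at 0 in 11 low-risk mice. The T and NK cell markers summed to 5.58, 8.56 and 15.8 CPM against 2.20, 5.26 and 9.74. Of 6 tested 3 were called higher and 1 lower. Stellate cell markers summed to 520, 1122 and 1637 CPM against 295, 455 and 592. Of 6 tested 4 were higher and 1 lower. The Kupffer cell markers summed to 133, 266 and 538 CPM against 218, 293 and 434. Of 7 tested 1 was higher and 3 lower. The shares over all genes were 20.3% higher and 18.5% lower. High-risk mouse 22 had the lowest sum of macrophage markers of its group and a mean log2 level of 4.47 over the 9 genes, above the group median, whereas mouse 1 was low in both, at 97.0 CPM of those markers. The part of these cells in the difference was not tested, and in bulk liver more cells of a type and more RNA per cell cannot be told apart.

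**Figure D2:**
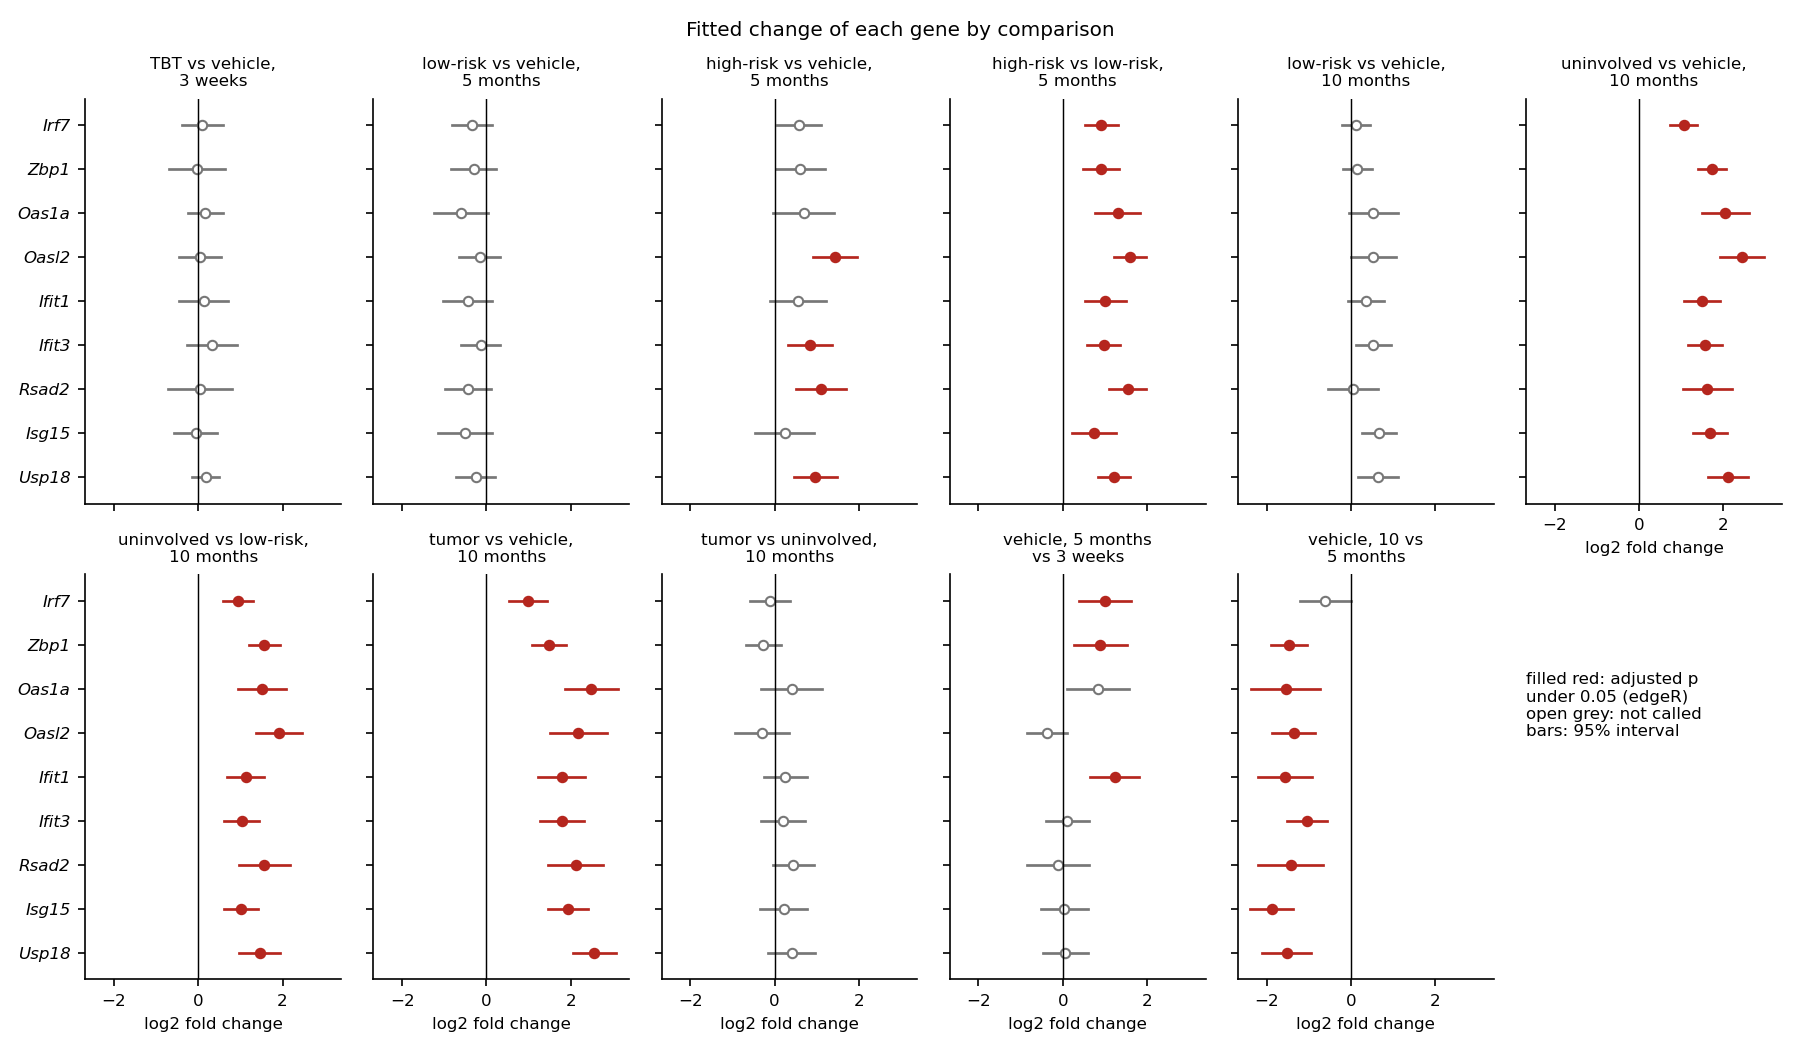
Log2 fold change of each of the 9 genes in 11 comparisons, with 95% intervals from the edgeR fit, filled red where the adjusted p was under 0.05. All 9 genes are above 0 and called in high-risk against low-risk liver at 5 months, in uninvolved against low-risk and against vehicle liver at 10 months and in tumor against vehicle, and none is called between tumor and uninvolved liver.

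Against vehicle mice of the same age, 4 of the 9 genes were higher in high-risk liver at 5 months: Oasl2, Rsad2, Usp18 and Ifit3. The test called 8.47% of all genes higher and 7.38% lower in this comparison, which shares the high-risk mice with the one above. Oasl2 was at 4.08, 5.76 and 9.09 CPM in the 8 vehicle mice, below every high-risk mouse but mouse 1, and its log2 fold change was 1.43 (SE 0.26, adjusted p = 0.000483 by edgeR). Rsad2 was higher by 1.10 (SE 0.29, adjusted p = 0.0106), Usp18 by 0.97 (SE 0.25, adjusted p = 0.00917) and Ifit3 by 0.84 (SE 0.25, adjusted p = 0.0216). The other 5 had positive values that did not pass, from 0.24 for Isg15 (adjusted p = 0.671) to 0.69 for Oas1a (adjusted p = 0.187). The vehicle mice were themselves uneven: vehicle mouse 4 had 80.0 CPM of Irf7 and 13.2 of Oas1a, and vehicle mouse 1 had 30.3 CPM of Ifit1 and 39.2 of Rsad2, levels found in high-risk mice. Vehicle mouse 4 also had 162 CPM of macrophage markers, vehicle mouse 6 had 368, and the median vehicle mouse 41.8. Within the first batch, with 3 high-risk and 7 vehicle mice, none of the 9 passed (0.10 to 1.47, all positive). Over all genes 0 passed there too, so that count says nothing particular about the 9. The second batch held 1 vehicle mouse. With no filter on low counts 2 of the 9 passed, and with total counts as library sizes 8 did. Over all genes the count called went from 2341 to 1211 and 4947 in the same order.

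Low-risk mice did not differ from vehicle mice at 5 months by the test. All 9 values were below 0, from −0.61 (Oas1a) to −0.14 (Ifit3) with a median of −0.33, and 0 of the 9 passed at an adjusted or an unadjusted p under 0.05 (edgeR). Over all genes the shares were 0% and 6.32%, and DESeq2 called 0 of the 9 as well. The intervals were wide: that of Oas1a ran from −1.25 to 0.03 and that of Irf7 from −0.80 to 0.14.

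At 10 months the 9 genes again differed with the risk label, and without overlap. Every uninvolved library carries the number of a mouse with a sequenced tumor, and no low-risk library does. The risk label and the presence of a tumor in the mouse therefore cannot be told apart here. All 9 genes were higher in uninvolved liver of high-risk mice than in low-risk liver, by 1.92-fold (Irf7) to 3.77-fold (Oasl2), with a median log2 fold change of 1.46. For all 9, every uninvolved sample was above every low-risk sample. The test called 27.7% of 16338 genes higher and 24.7% lower, and 23.2% of genes had every uninvolved sample above every low-risk one. The 6 uninvolved libraries also stood apart from the low-risk and vehicle libraries of that age in depth (34762240 to 44585060 counts against 26165227 to 33486835), genes detected (24676 to 28715 against 21078 to 22578) and mitochondrial counts (4.2% to 5.85% against 2.94% to 3.83%). The part of these in the difference was not tested.

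Irf7 was at 101, 62.1, 66.7, 69.0 and 48.8 CPM in the 5 uninvolved samples (mouse 1, mouse 12, the summed libraries 3 and 6, mouse 5 and mouse 7) and at 26.03, 33.1, 35.3, 32.8 and 24.1 in the 5 low-risk mice. The lowest uninvolved sample was clearly above the highest low-risk mouse, and the log2 fold change was 0.94 (SE 0.17, adjusted p = 0.0002 by edgeR). Zbp1 was at 16.2, 9.64, 17.1, 10.8 and 11.7 CPM in the same uninvolved samples and at 3.07, 3.84, 4.12, 4.17 and 3.35 in low-risk mice. Low-risk mice varied little, and the log2 fold change of 1.57 (SE 0.17) had the smallest adjusted p of the 9, 2.09e-06.

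Oasl2 was at 26.7, 12.8, 24.6, 12.2 and 12.3 CPM in uninvolved liver and at 4.23, 3.52, 5.18, 3.14 and 3.70 in low-risk liver. Mouse 1 and the summed libraries were well above the other uninvolved samples, and all 5 were above the low-risk mice. The log2 fold change was 1.92 (SE 0.26, adjusted p = 1.8e-05 by edgeR). Oas1a was at 14.6, 7.10, 14.4, 7.08 and 4.46 CPM against 2.27, 3.29, 2.57, 3.32 and 2.51, with the same samples high, and rose by 1.52 (SE 0.28, adjusted p = 0.000261).

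Rsad2 had another order among the animals. It was at 29.1, 23.3, 28.3, 33.1 and 44.0 CPM in uninvolved liver, highest in mouse 7, which was lowest for Irf7, Oas1a and Isg15, and at 12.8, 8.07, 7.30, 5.63 and 11.1 in low-risk mice. Its log2 fold change was 1.57 (SE 0.29, adjusted p = 0.000339 by edgeR). Ifit1, at 20.1 ± 6.32 against 7.70 ± 1.05 CPM, rose by 1.12 (SE 0.21, adjusted p = 0.000335), and Ifit3, at 17.8 ± 5.68 against 7.29 ± 1.34 CPM, by 1.03 (SE 0.20, adjusted p = 0.000421).

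Usp18 was at 42.2, 18.3, 25.96, 18.02 and 21.1 CPM in uninvolved liver and 8.63, 9.66, 10.6, 4.07 and 5.43 in low-risk liver. Mouse 1 stood above the rest, and the log2 fold change was 1.46 (SE 0.23, adjusted p = 8.18e-05 by edgeR). Isg15 was at 12.3, 7.04, 8.88, 6.13 and 5.09 CPM against 3.73, 3.88, 3.75, 2.28 and 2.72, and rose by 1.02 (SE 0.19, adjusted p = 0.000393). Mouse 1 was the highest uninvolved sample in 7 of the 9 genes.

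Cell markers moved here as well. Macrophage markers summed to 166, 246 and 342 CPM in uninvolved liver and 40.6, 52.4 and 59.7 in low-risk liver with 7 of 7 called higher, and the Kupffer cell markers to 141, 207 and 278 CPM against 303, 328 and 387 with 7 of 7 called lower. Plasmacytoid dendritic cell markers summed to 22.4, 43.2 and 53.5 CPM against 21.4, 24.03 and 27.96, with 3 of 3 tested called higher and Tcf4 again the largest part (36.5 against 23.6 CPM on average). T and NK cell markers summed to 5.49, 7.99 and 9.95 CPM against 3.05, 3.90 and 5.07, with 5 of 6 called higher, and stellate cell markers to 632, 726 and 892 CPM against 358, 434 and 500, with 4 of 6 called higher and 1 lower. The shares over all genes were 27.7% higher and 24.7% lower. The part of these cells in the difference was not tested.

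Against 10-month vehicle mice the same uninvolved samples were higher in all 9 genes, by 2.08-fold (Irf7) to 5.45-fold (Oasl2), again with no overlap for any of the 9. The median log2 fold change was 1.69, adjusted p by edgeR ran from 2.93e-07 to 0.000115, and the shares over all genes were 31.2% higher, 26.5% lower and 27.3% without overlap. Oasl2 was at 1.57, 2.42 and 3.76 CPM (lowest, median and highest) in the 6 vehicle mice, below every one of the 5 uninvolved samples, and rose by 2.45 (SE 0.25, adjusted p = 7.24e-07). Usp18 was at 3.47, 4.74 and 5.39 CPM in vehicle mice and rose by 2.11 (SE 0.22, adjusted p = 1.1e-06), Oas1a by 2.05 (SE 0.27) and Isg15 by 1.69 (SE 0.19). Irf7 again had the smallest difference, 1.05 (SE 0.16). With the tumor-labelled library counted as a vehicle liver, Ifit1 (0.95, adjusted p = 0.0505) and Rsad2 (0.98, adjusted p = 0.0813) did not pass. Macrophage markers were at 37.2 to 53.5 CPM in these vehicle mice.

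Low-risk mice of 10 months did not pass the test against vehicle mice for any of the 9 genes, although all 9 values were above 0 (0.05 to 0.67, median 0.53), or 5 of the 9 with the tumor-labelled library counted as a vehicle liver. Every adjusted p was 1 by edgeR, and 3 of the 9 had an unadjusted p under 0.05, Isg15 at 0.67, Usp18 at 0.65 and Ifit3 at 0.53, where 4.21% of all genes had one and 0% were called. DESeq2 called 0 of the 9. Isg15 was at 3.27 ± 0.722 CPM in low-risk and 1.95 ± 0.224 in vehicle mice, and Rsad2 at 8.98 ± 2.91 against 8.29 ± 3.85.

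**Figure D3:**
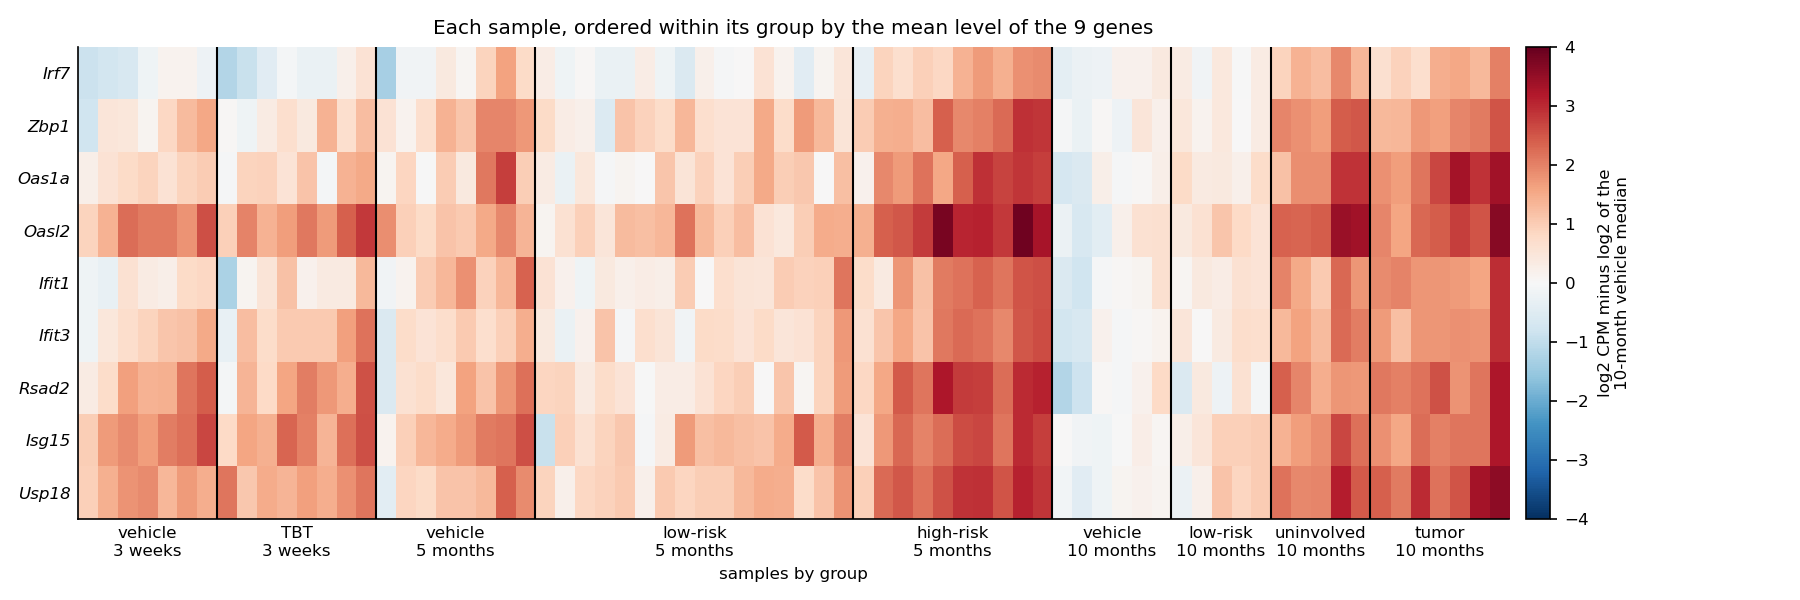
Level of the 9 genes in each sample, as log2 CPM minus the log2 median of the 10-month vehicle mice, with samples ordered within a group by their mean level. High-risk, uninvolved and tumor samples are raised across all 9 rows, with high-risk mouse 1 at 5 months resembling the low-risk mice. The 10-month vehicle mice were the lowest group for most genes, so a raised row is not particular to those samples. Median CPM was also above this baseline for all 9 genes in the vehicle and low-risk mice of 5 months. In vehicle and TBT mice of 3 weeks it was above the baseline for every gene but Irf7.

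Tumors did not differ from uninvolved liver by the test in any of the 9 genes. Between tumor and uninvolved liver 0 of the 9 genes passed at an adjusted or an unadjusted p under 0.05 (edgeR, adjusted p 0.181 to 0.76), while 18.1% of 16362 genes were called and 34.9% had an unadjusted p under 0.05, and DESeq2 called 0 of the 9. The fold changes ran from −0.29 (Oasl2, 95% interval −0.94 to 0.35) to 0.45 (Rsad2, −0.04 to 0.94). Irf7 was at 64.9 ± 23.3 CPM in the 7 tumors and 69.5 ± 19.3 in uninvolved liver, Oas1a at 12.7 ± 5.82 against 9.52 ± 4.66, and Zbp1 at 10.97 ± 3.41 against 13.1 ± 3.36. The 6 uninvolved libraries were deeper than the tumor libraries (34762240 to 44585060 counts against 22502522 to 27894659). They had more genes detected (24676 to 28715 against 22609 to 23868) and more mitochondrial counts (4.2% to 5.85% against 2.64% to 3.46%). The part of these was not tested.

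In the 6 mice with both tissues the direction depended on the gene and the mouse. Rsad2 was higher in the tumor of 5 of 6 mice, most in mouse 1 at 80.0 CPM in tumor and 29.1 in uninvolved liver, and lower in mouse 7 at 34.6 against 44.0. Ifit1 was also higher in 5 of 6, with 45.3 against 28.7 CPM in mouse 1 and 23.3 against 23.2 in mouse 7. Usp18, Isg15, Irf7 and Oas1a were higher in 4 of 6, Oasl2 and Ifit3 in 3 and Zbp1 in 2. Mice 3 and 6 differed from the rest in Irf7: their tumors had 42.0 and 40.9 CPM where the uninvolved libraries had 68.0 and 65.3. Their tumors had 11.8 and 9.46 CPM of Oasl2 where those libraries had 24.5 and 24.7. Mouse 7 also had less Oasl2 in tumor, 7.20 against 12.3 CPM. Numbers 3 and 6 are those of the uninvolved libraries that were nearly identical, so at least 1 of their pairs may not join tissues of 1 mouse. By deviations from the group means, 1 of the 6 tumors correlated best with the uninvolved liver of its own number. With the mouse as a block and without mice 3 and 6, 1 of the 9 passed, Oas1a at 0.73 (adjusted p = 0.0167 by edgeR). It was higher in the tumor of each of the other 4 mice. With all 6 pairs in the block none passed.

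**Figure D4:**
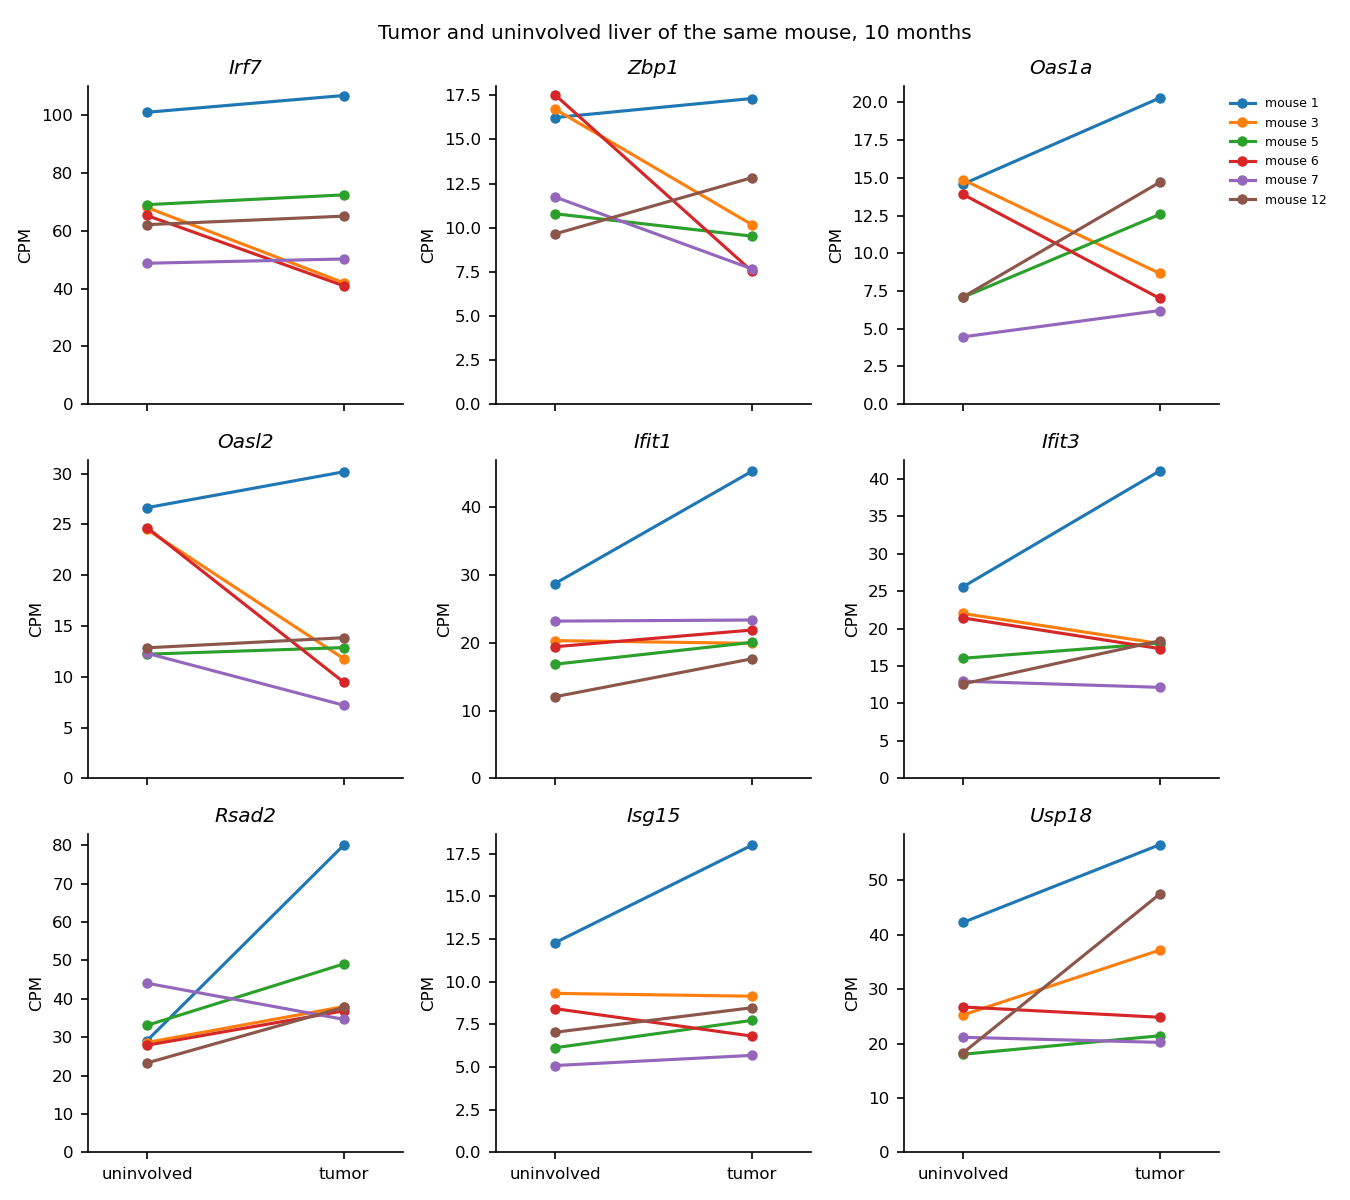
Level of each of the 9 genes (CPM, linear axis from 0) in uninvolved liver and tumor of the 6 mice with both, joined by mouse. Rsad2 and Ifit1 are higher in the tumor of 5 of 6 mice, and the lines of mice 3 and 6 fall for Irf7, Zbp1, Oas1a, Oasl2 and Ifit3.

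Tumors were higher than 10-month vehicle liver in all 9 genes, by 1.98-fold (Irf7) to 5.89-fold (Usp18), with no overlap for any of the 9. The median log2 fold change was 1.94 and adjusted p by edgeR ran from 4.78e-06 to 0.0019. Over all genes 24.8% were called higher, 21% lower, and 22.3% had every tumor above every vehicle mouse. Usp18 was at 20.2, 27.3 and 56.5 CPM (lowest, median and highest) in tumor, above all 6 vehicle mice, and rose by 2.56 (SE 0.24). Oas1a rose by 2.49 (SE 0.29), Oasl2 by 2.19 (SE 0.32), Rsad2 by 2.12 (SE 0.31) and Isg15 by 1.94 (SE 0.23). With the tumor-labelled library counted as a vehicle liver, Oasl2 (1.14, adjusted p = 0.134) and Zbp1 (0.89, adjusted p = 0.0776) did not pass. The tumor of mouse 1 was the highest in all 9 genes. Macrophage markers summed to 206, 336 and 997 CPM in tumors with 7 of 7 called higher, and plasmacytoid dendritic cell markers to 28.9, 37.9 and 41.0 CPM where vehicle livers had 21.5, 23.1 and 26.9. The latter sum includes Tcf4, which other cells express too. Of 7 T and NK cell markers tested 6 were higher, and of 6 stellate cell markers 3 were higher and 1 lower. Of 7 Kupffer cell markers 4 were lower and 0 higher, and of 6 sinusoidal endothelial markers 2 were higher and 4 lower. The part of these cells in the difference was not tested.

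In vehicle mice the 9 genes changed with age in different ways before and after 5 months. From 3 weeks to 5 months, among mice of the first batch, 3 of the 9 were higher, Ifit1 by 1.23 (SE 0.27, adjusted p = 0.00484 by edgeR), Irf7 by 0.99 (SE 0.29, adjusted p = 0.0245) and Zbp1 by 0.89 (SE 0.29, adjusted p = 0.044), where 8.93% of 13927 genes were called higher and 9.93% lower. Ifit1 was at 4.75, 7.41 and 10.3 CPM at 3 weeks. All but the shallow library of the 7 first-batch vehicle mice of 5 months were above that range. The other 6 did not pass, and Oasl2 (−0.38) and Rsad2 (−0.11) had values below 0. Without vehicle mouse 1, 2 or 7 of 3 weeks, or without vehicle mouse 1 or 4 of 5 months, 1 of the 9 passed, with no filter on low counts none did, with the libraries of mouse 3 of 3 weeks apart Zbp1 did not (adjusted p = 0.0612), and with total counts as library sizes Ifit1 alone did.

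From 5 to 10 months 8 of the 9 were lower in vehicle mice, by 1.04 (Ifit3) to 1.88 (Isg15) on the log2 scale, with adjusted p by edgeR of 0.00157 to 0.0267. Irf7 had −0.60 (adjusted p = 0.19). The test called 4.08% of 14333 genes lower and 4.05% higher. Isg15 was at 1.73, 1.93 and 2.33 CPM in the 6 vehicle mice of 10 months and, among the first-batch mice of 5 months, was above that range in all but the shallow library of mouse 9, which had 2.12 CPM from 6 counts. Oasl2 and Zbp1 were the only 2 of the 9 with every 10-month mouse below every 5-month mouse, as were 0.879% of all genes. The macrophage markers had a wider range at 5 months (31.0 to 368 CPM over all 8 vehicle mice) than at 10 months, and 1 of the 7 was called lower. Without vehicle mouse 1, 2, 4 or 7 of 10 months 6 of the 9 passed, without vehicle mouse 9 of 5 months all 9 did, and with the tumor-labelled library counted as a vehicle liver none did.

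Between 5 and 10 months neither risk class changed past the test in any of the 9 genes, in a fit with batch as a term. In low-risk mice all 9 values were below 0 (−0.82 to −0.04, with that of Irf7 above 0 by total counts), none passed, and 4 of the 9 had an unadjusted p under 0.05, where 9.66% of 16084 genes had one and 0% were called. From high-risk liver at 5 months to uninvolved liver at 10 months the values had a median of −0.25, none passed, and 1 of the 9, Rsad2 at −0.76 (adjusted p = 0.149 by edgeR), had an unadjusted p under 0.05, where the shares were 2.05% called and 18% unadjusted. The difference between high and low risk was not shown to change with age: the interaction was positive for all 9 (0.04 to 0.66) and for 6 of the 9 by total counts, 0 of the 9 passed at an adjusted or an unadjusted p under 0.05, and over all genes 0.448% were called (40.3% of these positive, 60% with DESeq2's size factors and 27.3% by total counts) and 12.1% had an unadjusted p under 0.05. DESeq2 called 0 of the 9 in each of these 3 comparisons. Zbp1 had the largest interaction, 0.66 with a 95% interval of −0.06 to 1.38. At 10 months the high-risk label and a sequenced tumor go together, so in these comparisons age, risk and tumor cannot be fully told apart.

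The 9 genes varied together beyond the groups. Over the 72 samples, after taking out the mean of each group and batch, Pearson's r between members ran from 0.394 (Oas1a and Rsad2) to 0.816 (Ifit1 and Rsad2) over the 36 pairs, with a median of 0.59. These points share library depth and cell makeup within a sample. By the same measure, against the mean of the 9, the most similar other genes were Rtp4 (r = 0.828), Cmpk2 (0.821), Xaf1 (0.802), Oasl1 (0.781), Lgals3bp (0.777), Ifit2 (0.774), Dhx58 (0.770), Adar (0.764), Trim30a (0.760) and Ifi44 (0.745). Each r is a description over these samples.

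The interferons themselves were almost unmeasured. The 11 ligand genes listed had between 2 (Ifna11) and 406 (Ifnk) counts over all samples together, with 13 for Ifnb1, 63 for Ifng and 13 for Ifnl3, and 0 of the 11 had enough to be tested in any comparison. A difference in ligand transcripts was not detectable at this depth.

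Receptor and JAK-STAT genes had medians near 0, and their counts are read beside the shares of all genes, 20.3% higher and 18.5% lower in high-risk against low-risk liver at 5 months and 27.7% higher and 24.7% lower in uninvolved against low-risk liver at 10 months. At 5 months 4 of 12 were higher and 1 lower (median 0.02): Ifngr1 (0.67) and Ifngr2 (0.49), which form the interferon gamma receptor, and Il10rb (0.65), a shared chain of the lambda receptor, were higher, and Ifnar2 (−0.34), a chain of the type I receptor, was lower. In uninvolved against low-risk liver at 10 months 4 were higher and 1 lower (median 0.11), among them the lambda receptor chain Ifnlr1 (3.05), Il10rb (0.69) and Jak1 (0.20) higher and Jak2 (−0.38) lower.

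Of the 17 nucleic acid sensors and adaptors 7 were higher and 3 lower in high-risk against low-risk liver at 5 months (median 0.28), where 20.3% and 18.5% of all genes were. Tlr7, an endosomal sensor of RNA, rose by 1.21 and Tmem173 (STING), the adaptor of DNA sensing, by 1.07, while Mavs (−0.60), the adaptor of RNA helicases, and Irf3 (−0.58), the factor these adaptors activate, fell. In uninvolved against low-risk liver 7 were higher and 2 lower (median 0.28), where 27.7% and 24.7% of all genes were, with Tmem173 at 1.19, the DNA sensor Aim2 at 1.04, Tlr7 at 0.69 and Ifi204 at 0.67. From 5 to 10 months in vehicle mice 3 were lower and none higher, Dhx58, Tmem173 and Tlr3, where 4.08% of all genes were lower.

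In the comparisons of risk, against vehicle and between vehicle mice of 10 and 5 months, the called further type I targets shared the direction of the 9. In high-risk against low-risk liver 23 of the 37 tested were higher and 0 lower (median 0.76), where 20.3% and 18.5% of all genes were. Among them were Ifi44 (1.75), Slfn8 (1.34), Phf11d (1.31) and Ifit2 (1.08). In uninvolved against low-risk liver 21 were higher and 0 lower (median 0.66), where 27.7% and 24.7% of all genes were. Oas1g, the near-copy of Oas1a that may share its reads, was at 2.45, Mx1 at 1.91, Sp100 at 1.19 and Slfn8 at 1.13. Against vehicle, 14 were higher in high-risk liver at 5 months, 28 in uninvolved liver and 31 in tumor, with none lower in any of the 3. In the same order 8.47%, 31.2% and 24.8% of all genes were higher and 7.38%, 26.5% and 21% lower. Between 5 and 10 months 12 were lower in vehicle mice and none higher (median −0.54), where 4.08% and 4.05% of all genes were. From 3 weeks to 5 months 6 were higher and 4 lower, where 8.93% and 9.93% of all genes were. Sp100 (−0.59) was the only 1 of the list called between tumor and uninvolved liver, where 10.5% of all genes were lower and 7.55% higher.

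Of the genes known from the interferon gamma response, some passed the test. In high-risk against low-risk liver 7 of 17 were higher and 1 lower (median 0.55), where 20.3% and 18.5% of all genes were. Cxcl10, a T cell chemokine, rose by 1.39 and Ciita, the regulator of MHC class II, by 1.34. Irf8, a myeloid transcription factor, rose by 1.05 and the GTPase Gbp3 by 0.75. In uninvolved against low-risk liver 10 were higher and 0 lower (median 0.69), where 27.7% and 24.7% of all genes were. Tgtp1 was at 1.63, Cxcl9 at 1.27, Ciita at 1.05 and Irf8 at 0.89. Between tumor and uninvolved liver Gbp6 (0.89) and Igtp (0.60) were higher, as was Ifngr1 (0.54), where 7.55% of all genes were. Irf8 and Ciita are also expressed by macrophages and dendritic cells. All 7 markers of monocyte-derived macrophages were called higher in both comparisons of risk. Of the 7 Kupffer cell markers 3 were lower and 1 higher at 5 months, and 7 were lower at 10 months. The part of these cells was not tested.

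The inhibitors of the pathway other than Usp18 gave few calls. In high-risk against low-risk liver 0 of 6 passed in either direction (median −0.18), where 20.3% of all genes were higher and 18.5% lower. In uninvolved against low-risk liver 2 of 7 were higher and 1 lower, near the shares of all genes (27.7% and 24.7%), with Irf2, a repressor of interferon targets, at 0.86, the phosphatase Ptpn6 at 0.29 and the ubiquitin ligase Rnf125 at −0.54. In tumor against uninvolved liver Irf2 (−0.96) and Pias1 (−0.41), a SUMO ligase, were lower, where 10.5% of all genes were. For TBT against vehicle at 3 weeks, low-risk against vehicle at 5 and 10 months, low-risk and high-risk liver between these ages and the interaction, 0 genes of any of these 5 lists passed.

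**Figure D5:**
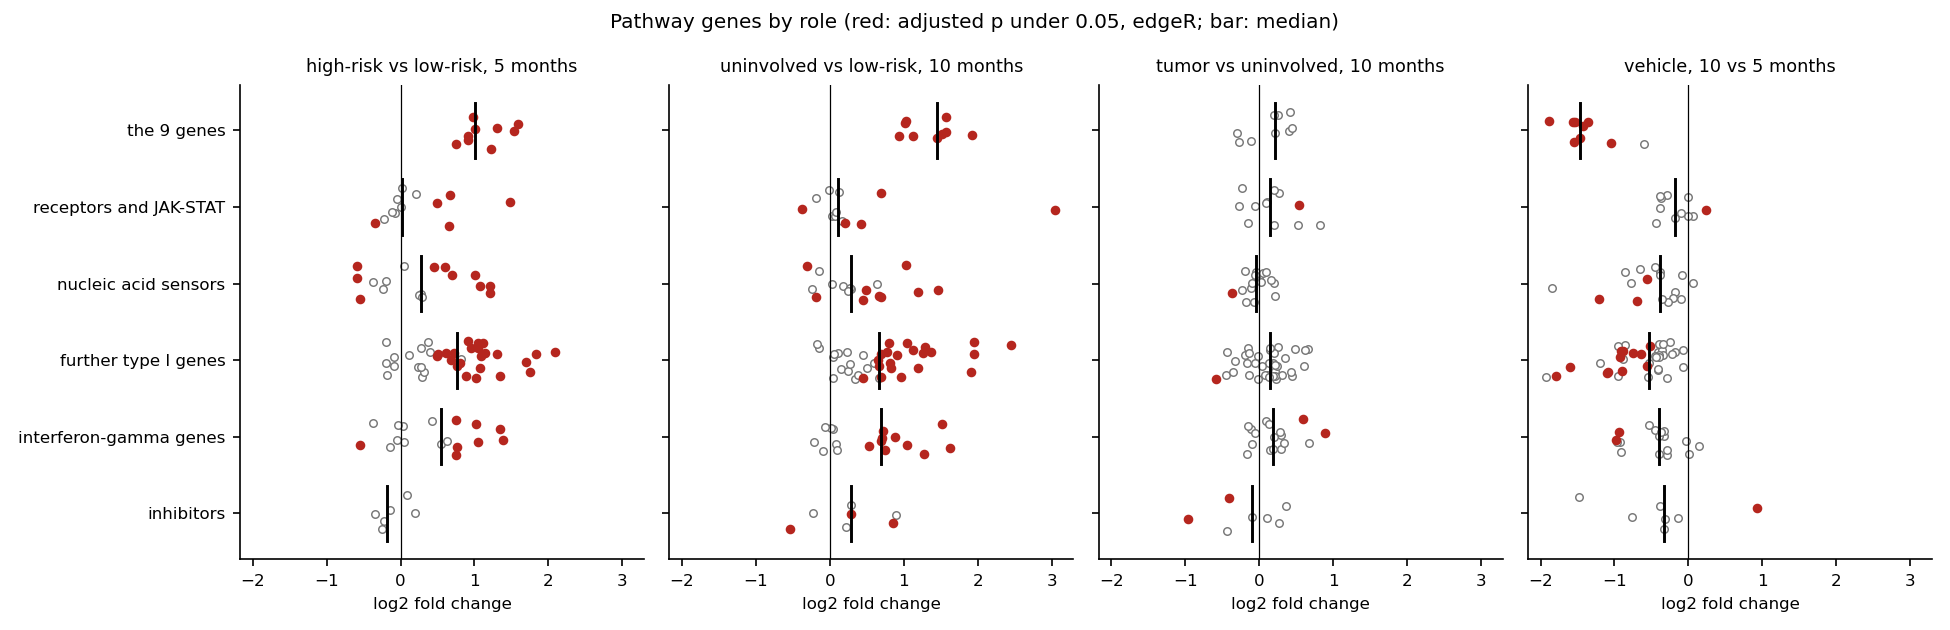
Log2 fold change of each tested gene of the 9 and of the 5 pathway lists in 4 comparisons, with called genes filled and a bar at the median. The 9 genes lie above the medians of the receptor, sensor and inhibitor lists in both comparisons of risk, near 0 between tumor and uninvolved liver, and below 0 between vehicle mice of 10 and 5 months.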

How the data were processed

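Whole-number counts per gene were deposited by the authors for total RNA of mouse liver, made with a stranded total RNA kit per the labels' protocols. Trim Galore, HISAT2, featureCounts and mm10 are named in the submitters' processing notes. The deposited counts had been adjusted between sequencing batches with ComBat-seq, per the file name, and the group setting is not given in the sources used here. A fit within 1 batch therefore still reads counts that the other batch helped to set. The strand setting and filters are not given in the sources used here. No column of another sample was in the table (0 columns).

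Counts were tested with edgeR 4.0.16 (R 4.3.3, TMM, filterByExpr, robust quasi-likelihood), with Benjamini-Hochberg adjustment over all genes tested and a threshold of 0.05. Standard errors are the size of the log2 fold change over the square root of F, and 95% intervals use the fit's degrees of freedom. Vehicle, low-risk and high-risk mice of 1 age shared a fit, and so did the 4 risk groups of both ages, each with batch as a term at 5 months. The tumor comparisons and the vehicle ages had fits of their own. The scripts were tested on simulated data. The alternatives were DESeq2 1.42.0, other size factors, no filter, single batches, no batch term, replicate blocks, separate libraries 3 and 6, left-out samples and the tumor-labelled vehicle. Log levels used a prior count of 1.

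All 9 genes were named in every comparison, and up to 4 genes of each list by smallest adjusted p. Likeness took the 10 other genes of highest r among those averaging 1 CPM or more. Members and lists were chosen with earlier results of these data known. Marker lists for B cells, neutrophils and sinusoidal endothelium had 1 of 5, 1 of 3 and 1 of 6 tested genes higher in high-risk against low-risk liver, and 0, 0 and 4 lower, and the 6 hepatocyte markers had 0 higher and 3 lower. The shares over all genes were 20.3% higher and 18.5% lower. Numbers pair tumor and uninvolved liver by mouse per the labels; over 6 pairs the deviations correlated with r from −0.183 to 0.569, and 1 of 6 was above the set limit.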

Additional observations from a re-analysis of the deposited data

Results flagged for a closer look

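The tumor of mouse 1 stood apart from the other 6 tumors in 5 of the 9 genes by the gap to its neighbor over the range of the group (Dixon's test), at 45.28 CPM of Ifit1, 41.05 of Ifit3, 18 of Isg15, 30.18 of Oasl2 and 79.98 of Rsad2. This was 5 of 72 gene and group sets tested, where chance flags about 1 in 20 if the sets are independent. All 5 flags fell on 1 library and the 9 genes varied together, so that rate does not weigh these flags.

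The single 10-month vehicle library labelled as a tumor, which entered no comparison, was above every vehicle liver of that age in all 9 genes. It had 38.49 CPM of Irf7, where the highest vehicle liver had 34.9, and 16.6 of Zbp1 against 4.28. It had 9.21 CPM of Oas1a against 2.33, 25.63 of Oasl2 against 3.76, 29.63 of Ifit1 against 9.07 and 9.732 of Ifit3 against 5.94. It had 49.53 CPM of Rsad2 against 14.6, 7.994 of Isg15 against 2.33 and 14.6 of Usp18 against 5.39. This was 1 library, with no replicate, and 14.1% of its counts were mitochondrial.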

How the results depend on the processing

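No difference of the 9 genes that passed the test turned its direction under any alternative. In high-risk against low-risk liver at 5 months 2 of the 9 passed in the first batch alone. In high-risk liver against vehicle the count of 4 became 0 in the first batch alone, 2 with no filter, 0 with a replicate block by number and 8 with total counts as library sizes, and 3 to 6 when single samples were left out (3 without high-risk mouse 9 or vehicle mouse 8, 6 without vehicle mouse 4). Tumor against uninvolved liver gave 1 with a replicate block of the mouse without mice 3 and 6. Between vehicle mice of 5 months and 3 weeks the count of 3 became 0 with no filter, 1 with total counts and 1 to 3 with single samples left out. Between those of 10 and 5 months the count of 8 became 5 with no filter, 0 with the tumor-labelled library as a vehicle and 6 to 9 with single samples left out. The causes were not tested. Leaving out single samples changed the count in no other comparison.

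Counts over all genes moved by over 1.5 times as follows. High-risk against low-risk liver went from 5745 to 773 in the first batch. High-risk liver against vehicle went from 2341 to 0 in the first batch, 1211 with no filter, 0 with the block and 4947 with total counts. Low-risk liver against vehicle at 5 months went from 0 to 66 with DESeq2 and 20 with no batch term. With the tumor-labelled library as a vehicle, uninvolved liver went from 9427 to 6019, tumor from 7016 to 4206 and the vehicle ages from 1165 to 156. Tumor against uninvolved liver went from 2961 to 4889 with DESeq2 and 1920 with the block of the mouse, and tumor against vehicle from 7016 to 4123 with the block by number. Vehicle mice of 5 months and 3 weeks went from 2627 to 1426 with no filter and 4801 without deviating libraries, and those of 10 and 5 months from 1165 to 2507 with DESeq2, 345 with no filter and 3362 without deviating libraries, and 2107 with the 3 ages in 1 fit. Low-risk mice between ages went from 0 to 60 with DESeq2, high-risk mice from 329 to 844 with DESeq2 and 99 with no filter and 549 with libraries 3 and 6 apart, and the interaction from 72 to 265, 4 and 122 in the same order.

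Outside the tumor pairs the samples share only a number, and a replicate block by it changed the count of called genes among the 9 in high-risk liver against vehicle (4 to 0) and between vehicle mice of 10 and 5 months (8 to 6, without Oas1a and Rsad2), and in no other comparison. In no comparison did every sample correlate best with its own number (3 of 7 at 3 weeks, 2 of 3 in high-risk and 1 of 5 in low-risk liver against vehicle, 1 of 4, 1 of 2 and 2 of 4 in the 10-month groups, 0 of 6 and 3 of 5 between vehicle ages). Total counts as library sizes, the vehicle ages in 1 fit and left-out samples between vehicle ages were chosen after seeing the data. Differences that did not pass were less stable in sign: with the block by number 2 of the 9 were above 0 in low-risk liver against vehicle at 5 months, and the interaction had 8 of 9 above 0 without deviating libraries. Depth limits the interferon ligands and vehicle mouse 9 of 5 months.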
